A study of Homo sapiens with 6 samples.

Results

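The genes described here encode the respiratory chain of mitochondria, in HEL cells, a human erythroleukemia cell line. They were taken by gene name: all names beginning with NDUFA, NDUFB, NDUFC, NDUFS or NDUFV, with MT-ND, MT-CO, MT-ATP or MT-CYB, with UQCR or ATP5, and with COX4I, COX5, COX6, COX7 or COX8, together with SDHA, SDHB, SDHC, SDHD and CYC1. This gave 191 of the 31999 genes listed. After 75 pseudogenes and 12 NDUFAF names were set aside, 104 genes remained, of which 99 are subunit genes and 5 only carry such a name. The subunit genes comprise 86 in the nucleus and all 13 protein genes of mitochondrial DNA. By name, 46 were counted in complex I, 4 in complex II, 11 in complex III, 18 in complex IV and 20 in complex V. NDUFA4 and NDUFA4L2 fell in complex I by this sorting, although they are forms of a complex IV subunit.

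The study compared HEL cells transduced with a small hairpin RNA against TMIGD2, an immune receptor of the CD28 family (shTMIGD2, 3 libraries labelled as biological replicates), with HEL cells carrying a control hairpin (shCtrl, 3 libraries). Both groups are the same line, grown in RPMI with serum and both transduced, and libraries were made from poly(A)-enriched RNA with a directional kit. What was used here is the authors' mean log2 CPM of each gene, that is, the log2 of its counts per 1000000 reads, taken once over all 6 libraries. It holds no value for a single library, so a level below is a mean over both groups with no replicate error, and no difference between shTMIGD2 and shCtrl was computed. The knockdown could therefore not be checked per library either: TMIGD2 itself had a mean of 4.08 log2 CPM over both groups. The markers of the line were present: all 7 erythroid markers looked up were at 5.52 log2 CPM or more, including GATA1 at 7.97, KLF1 at 7.62 and the fetal globin gene HBG1 at 9.72. Of the 12 markers of T cells, B cells, fibroblasts and epithelium, 3 were not listed (CD3D, CD3E and MS4A1), 8 were under 0 log2 CPM, and CD79A was at 2.32.

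The respiratory chain passes electrons from NADH (complex I) or succinate (complex II) through ubiquinone to complex III, then through cytochrome c to complex IV, which reduces oxygen. Complexes I, III and IV pump protons across the inner membrane, and complex V, the ATP synthase, lets them flow back to make ATP. Complexes I, III, IV and V are built from the products of both genomes and must be assembled from them in matched amounts, whereas complex II is wholly nuclear. Red cell precursors need the chain while they make heme, part of which takes place in the mitochondrial matrix, and lose their mitochondria when they mature.

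Sequences of 3 kinds are printed here because the descriptions below refer to them. The first is the stretch that MT-ATP8 and MT-ATP6 share, since a read from it fits both genes. It spans 46 bases at chrM:8527-8572 on the plus strand, the end of MT-ATP8 and the beginning of MT-ATP6, with the start codon of MT-ATP6 in capitals.
MT-ATP8/MT-ATP6: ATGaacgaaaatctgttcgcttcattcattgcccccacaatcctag

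The second is the coding sequence for the c subunit of the ATP synthase ring, which 3 nuclear genes encode. The proteins differ in their import sequences, which are removed in the mitochondrion, and are identical over their last 77 residues. The 231 bases that encode these residues are shown without the stop codon, and the 57 positions at which the genes differ are in capitals.
ATP5MC1: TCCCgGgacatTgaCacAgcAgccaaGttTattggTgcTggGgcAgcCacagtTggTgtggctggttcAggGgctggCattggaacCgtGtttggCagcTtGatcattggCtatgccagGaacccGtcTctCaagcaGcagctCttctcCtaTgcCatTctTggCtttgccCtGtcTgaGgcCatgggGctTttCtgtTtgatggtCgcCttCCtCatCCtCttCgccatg
ATP5MC2: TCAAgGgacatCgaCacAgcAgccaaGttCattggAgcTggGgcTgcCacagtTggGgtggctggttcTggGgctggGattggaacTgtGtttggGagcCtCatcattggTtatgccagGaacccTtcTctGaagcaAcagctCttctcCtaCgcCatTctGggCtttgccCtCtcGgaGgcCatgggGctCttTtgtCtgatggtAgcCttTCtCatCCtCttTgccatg
ATP5MC3: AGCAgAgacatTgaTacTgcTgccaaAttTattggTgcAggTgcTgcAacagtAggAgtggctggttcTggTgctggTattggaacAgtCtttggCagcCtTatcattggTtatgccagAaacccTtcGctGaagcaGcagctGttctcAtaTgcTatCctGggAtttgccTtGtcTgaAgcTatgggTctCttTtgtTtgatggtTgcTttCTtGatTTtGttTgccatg
ATP5MC1 and ATP5MC2 differed at 27 of these positions, ATP5MC1 and ATP5MC3 at 46, and ATP5MC2 and ATP5MC3 at 46. Reads over such a position can be told apart between the genes, although the finished protein is the same.

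The third kind is the promoter. RefSeq windows (GRCh38.p14, 250 bases before to 50 after the start) were at hand for 68 of the 86 nuclear subunit genes. The 2 printed are those that held the letters searched for all of NRF1 (GCATGCGC), the ETS family with GABP (CCGGAAG) and YY1 (AAGATGGC), transcription factors known to act on nuclear genes of the chain. The letters found on either strand are in capitals. The ATP5PF window lies at chr21:25735005-25735304 and the SDHB window at chr1:17053983-17054282, both on the minus strand.
ATP5PF: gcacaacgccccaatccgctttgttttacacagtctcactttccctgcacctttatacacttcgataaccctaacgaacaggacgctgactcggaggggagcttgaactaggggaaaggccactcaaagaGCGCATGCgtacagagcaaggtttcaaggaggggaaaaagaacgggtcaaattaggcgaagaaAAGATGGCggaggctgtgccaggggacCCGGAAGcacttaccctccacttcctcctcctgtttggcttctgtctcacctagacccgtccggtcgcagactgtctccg
SDHB: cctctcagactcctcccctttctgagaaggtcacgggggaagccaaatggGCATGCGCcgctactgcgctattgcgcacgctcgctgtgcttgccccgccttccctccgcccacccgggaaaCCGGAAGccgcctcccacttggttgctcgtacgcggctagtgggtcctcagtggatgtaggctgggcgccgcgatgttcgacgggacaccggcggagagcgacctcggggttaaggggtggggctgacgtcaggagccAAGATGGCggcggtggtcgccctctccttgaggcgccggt

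Together the 99 subunit genes took up 2.32% of the counts. The mitochondrial genes gave 1.14% and the nuclear ones 1.18%, so 13 genes matched 86. For comparison, the 77 cytosolic ribosomal protein genes gave 9.70% and 17 glycolysis genes 1.09%. The median subunit gene stood at 6.78 log2 CPM, the 93.5th percentile of all genes listed, whose median was -0.97.

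Since longer transcripts gather more reads, levels of different genes were compared per kilobase (kb) of the canonical GENCODE transcript. On this scale the median was 9.59 log2 CPM per kb for the mitochondrial genes and 6.62 for the nuclear subunit genes, a 7.85-fold difference between the medians. With the summed length of all exons of a gene in place of 1 transcript it was 23.9-fold, since the mitochondrial genes have a single exon. The 11494 protein-coding genes with a mean of at least 0 log2 CPM had a median of 3.25 and an upper quartile of 4.67. All 13 mitochondrial genes and 67 of the 86 nuclear ones were above that upper quartile. Only 4 nuclear genes were above the lowest mitochondrial gene, MT-ATP8 at 8.82: UQCRH (9.92), ATP5F1B (9.75), ATP5MC2 (9.20) and COX7A2 (8.88).

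**Figure D1:**
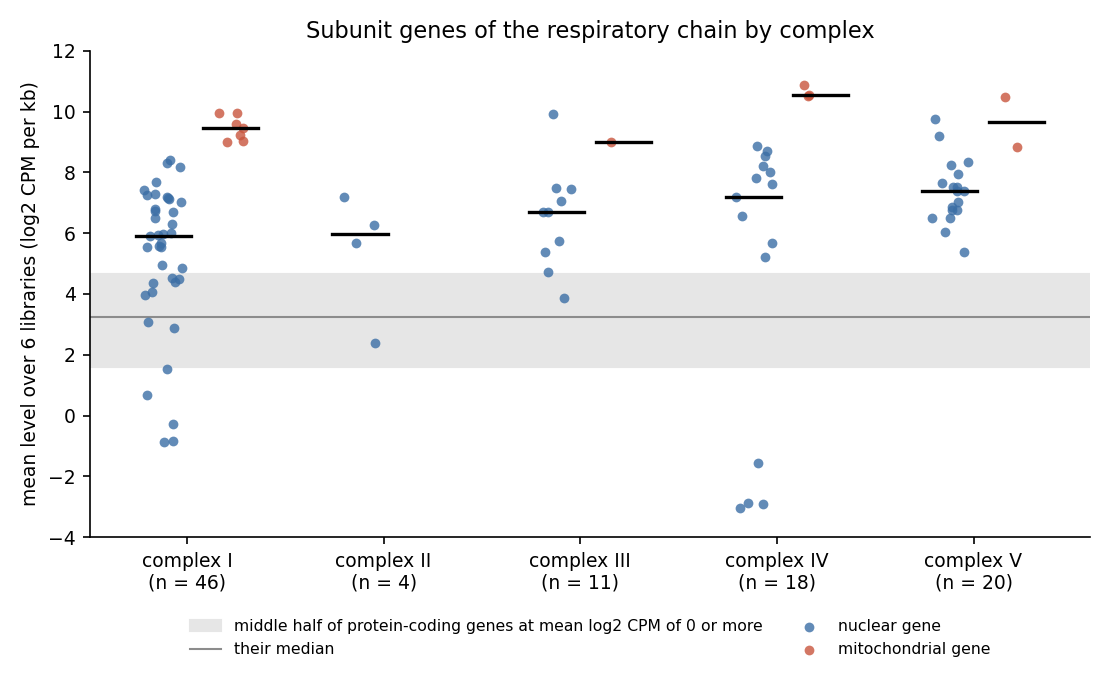
Level of each subunit gene by complex, as the authors' mean log2 CPM over 6 libraries scaled per kb of transcript. Blue points are nuclear genes, red points mitochondrial genes and black bars their medians; the grey band spans the quartiles of protein-coding genes at a mean of 0 log2 CPM or more, with its median as a line. Mitochondrial genes lie at 8.82 or more, and complexes I and IV have nuclear genes that fall under 0.

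Among the mitochondrial genes, the 3 catalytic-core genes of complex IV were listed highest, with MT-CO1 at 1881 CPM per kb, MT-CO3 at 1490 and MT-CO2 at 1465. MT-CO1 carries the site where oxygen is reduced, and MT-CO2 takes up the electrons from cytochrome c. MT-ATP6, which forms the proton path of the ATP synthase, was next at 1431 CPM per kb. The 7 complex I genes, which encode the membrane arm that pumps protons, lay lower: MT-ND1 at 995 and MT-ND4 at 989, then MT-ND3 at 771, MT-ND2 at 700, MT-ND6 at 596, MT-ND4L at 519 and MT-ND5 at 509. MT-CYB, the only mitochondrial subunit of complex III, stood at 517 CPM per kb, between the last of these. The lowest was MT-ATP8, a small membrane subunit of the synthase, at 452 CPM per kb. From the lowest to the highest the 13 genes spanned 8.82 to 10.88 log2 CPM per kb. With 1 pooled value per gene, neighbours in this order cannot be said to differ.

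These genes are transcribed as long precursors and cut apart, mostly at the tRNAs between them. MT-ATP8 and MT-ATP6 stay on 1 messenger, as do MT-ND4L and MT-ND4. In both messengers the short first gene was listed lower than the long one: MT-ATP8 (207 bases) against MT-ATP6 (681 bases) by 8.82 to 10.48 log2 CPM per kb, and MT-ND4L (297 bases) against MT-ND4 (1378 bases) by 9.02 to 9.95. The printed stretch covers 22.2% of MT-ATP8 and 6.8% of MT-ATP6, while MT-ND4L and MT-ND4 share 7 bases, which is 2.4% and 0.5% of them. Scaled by the 161 bases of MT-ATP8 that no other gene holds, its level was 9.18 log2 CPM per kb. This scaling takes no account of fragments that reach from those bases into MT-ATP6. The part of the shared stretch in the lower level of MT-ATP8 was not tested. MT-ND6 is the only protein gene on the other strand, and its messenger is known to lack a poly(A) tail. In these poly(A)-enriched libraries it was listed at 9.22 log2 CPM per kb, between MT-ND2 (9.45) and MT-ND4L (9.02). The strand setting of the counting is not given in the sources used here. Whether reads from the opposite strand entered this value could therefore not be told.

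**Figure D2:**
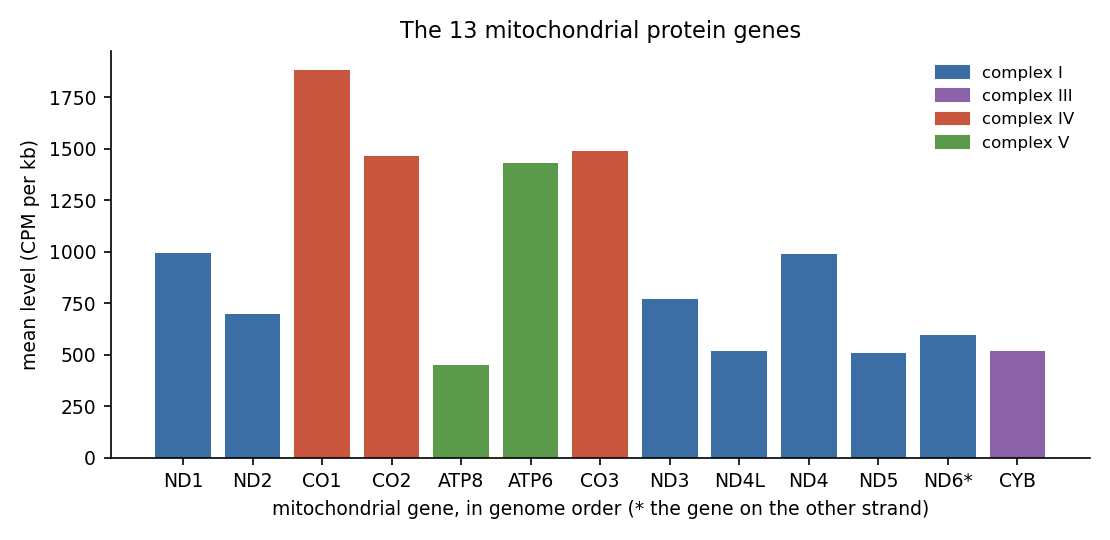
Level of the 13 mitochondrial protein genes in their order along the genome, in CPM per kb on a linear axis from 0, coloured by complex. Each bar is the authors' mean over 6 libraries and has no error bar; the complex IV genes and MT-ATP6 stand at 1431 or more and all others at 995 or less.

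Nuclear copies of mitochondrial DNA can take reads from these genes. Of 79 such copies listed, 62 were under 0 log2 CPM and 2 were above 5. MTATP6P1, on chromosome 1, was at 6.74 log2 CPM and is identical to MT-ATP6 at 98.5% of aligned bases, and MTCO1P12, also on chromosome 1, was at 5.87 and is identical to MT-CO1 at 98.7%. Their CPM came to 10.96% and 2.01% of those of MT-ATP6 and MT-CO1, and from which genome these reads came was not tested. All 79 copies together summed to 289 CPM, beside 11427 CPM for the 13 genes. The 75 nuclear pseudogenes left out by name summed to 74.8 CPM, and none of them was above 5 log2 CPM. Any copies of SDHA, SDHB, SDHC, SDHD and CYC1 are not included, since these names were taken exactly, and were not looked up. Among the 75, NDUFV2P1, at 1.85 log2 CPM, was listed above NDUFV2 itself at -1.06. Whether reads of NDUFV2 were counted for this copy was not tested.

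Complex I, the NADH dehydrogenase, had the widest gap between its genomes with genes sorted by name. The gap between medians was 3.53 on the log2 scale, against 3.36 in complex IV. This order rests on counting NDUFA4 and NDUFA4L2 in complex I. The 7 mitochondrial genes of complex I had a median of 9.45 log2 CPM per kb. The 39 nuclear genes counted with it by name had one of 5.92, which is the level of NDUFA4 itself. The mitochondrial genes held 61.96% of the counts of the complex. No nuclear complex I gene reached the lowest mitochondrial one. The nuclear core subunits, which carry the flavin and the iron-sulfur clusters of the arm that takes electrons from NADH, ranged widely. NDUFS8 was highest at 7.14 log2 CPM per kb, and the flavin-binding NDUFV1 was at 6.79 and NDUFS3 at 5.96. NDUFS7 was at 4.08 and NDUFS1, the largest of them, at 3.98, on a canonical transcript of 11660 bases. NDUFV2, which holds an iron-sulfur cluster and is required for the enzyme, was listed at only -0.84 log2 CPM per kb.

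The 31 accessory subunits counted with complex I by name, NDUFA4 among them, had a median of 5.92 log2 CPM per kb. The highest were NDUFS5 at 8.42 and NDUFB9 at 8.30, both of the membrane arm. The lowest was NDUFA7 at -0.86, and NDUFA13, also known as GRIM-19, was at 0.68. By mean level 26 of the 39 nuclear complex I genes were at 5 log2 CPM or more and 4 were under 0 (NDUFA7, NDUFA13, NDUFV2 and NDUFA4L2). From NDUFA7 to NDUFS5 the levels per kb spanned 620.7-fold. The span was 413.8-fold without genes that share 50% or more of their bases with another gene model, as NDUFA7 does. The lowest gene was then NDUFA4L2, a form of a complex IV subunit. Also without genes under 0 log2 CPM the span was 117.4-fold.

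Complex II, succinate dehydrogenase, links the chain to the citric acid cycle. SDHB, the iron-sulfur subunit, was highest at 7.21 log2 CPM per kb, and the membrane anchors SDHC and SDHD were at 6.28 and 5.68. SDHA, the flavin subunit that oxidizes succinate, was at 2.38, so that the partner it binds directly was listed 4.83 higher on the log2 scale. SDHA is also among the genes that overlap other gene models.

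In complex III, cytochrome bc1, the catalytic nuclear subunits were CYC1 (cytochrome c1) at 7.48 log2 CPM per kb and UQCRFS1 (the Rieske iron-sulfur protein) at 5.74, beside MT-CYB at 9.01. The 8 accessory genes had a median of 6.68. UQCRH, the acidic hinge protein, stood out at 9.92, the highest per kb of all nuclear genes of the chain, and UQCRC1 was at 7.46. The lowest were UQCR11 at 3.88 and UQCRB at 4.72. UQCRB illustrates what the length does: at 7.80 log2 CPM it was above UQCRC2 (7.62) before scaling, and its canonical transcript has 8459 bases against 1914.

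Complex IV, cytochrome c oxidase, drew 73.9% of its counts from 3 mitochondrial genes, the highest share of the 4 mixed complexes. The 10 common nuclear subunits counted with it by name were the highest nuclear group of complexes I to IV. Their median was 7.92 log2 CPM per kb and their range 5.23 (COX7B) to 8.88 (COX7A2), and COX6B1 followed COX7A2 at 8.70. NDUFA4, taken with complex I by its name, is now known as a complex IV subunit, and was at 5.92.

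In complex V, the ATP synthase, the 18 nuclear genes had a median of 7.39 log2 CPM per kb. All were above the upper quartile of protein-coding genes, and the SD among them was 1.07, the smallest of the 5 complexes as listed, against 2.45 in complex I, 2.10 in complex II, 1.69 in complex III and 4.74 in complex IV. Without genes that share 50% or more of their bases with another model and genes under 0 log2 CPM, the SD was 1.09 in complex V, 1.63 in complex I, 0.77 in complex II and 1.22 in complex IV, so the smallest was then that of complex II, from 3 genes. The high value of complex IV rested on 4 tissue forms near the lowest level listed. Only 17.8% of the counts of complex V were mitochondrial. ATP5F1B, the catalytic beta subunit, was the highest at 9.75, and by mean level, at 10.57 log2 CPM, it was the highest of all nuclear genes of the chain. ATP5F1A, the alpha subunit that alternates with beta in the F1 head, had 9.91 log2 CPM but 7.39 per kb, on a canonical transcript of 5761 bases against 1759 for ATP5F1B. The lowest were ATP5F1E (epsilon, a small subunit of the central stalk) at 5.38 and ATP5MG at 6.05. ATP5IF1, the inhibitor that stops the synthase from running backwards, was at 8.35, and the 4 genes of the peripheral stalk ranged from 6.77 (ATP5PO and ATP5PB) to 8.25 (ATP5PF).

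Of the 3 c-ring genes whose coding sequences are printed above, ATP5MC2 was listed at 587 CPM per kb, ATP5MC1 at 245 and ATP5MC3 at 115.5. Before scaling, ATP5MC2 (8.53 log2 CPM) and ATP5MC3 (8.22) were close and ATP5MC1 (7.31) was lowest, as the canonical transcripts have 632, 2587 and 646 bases. ATP5MC2 was thus first on both scales, and the order of the other two depended on the length.

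Several subunits exist in a common form and in a form known from particular tissues or conditions, and in HEL cells the common one was the higher in each pair. COX4I1 was at 8.20 log2 CPM per kb and COX4I2, the form of lung and of low oxygen, at -2.90. COX6B1 was at 8.70 and the testis form COX6B2 at -3.05. COX7A2 was at 8.88 and the heart and muscle form COX7A1 at -1.56. COX8A was at 7.18 and COX8C at -2.88, and COX8C had the lowest mean listed for any gene of the chain, -3.76 log2 CPM. The second forms of these 4 pairs were at -2.40 log2 CPM or less, near the lowest mean listed in the whole table, so no fold is given for them. Their proteins are at most 54.7% identical over aligned residues, and their coding sequences at most 65.9%. The partner was not listed for COX6A1 (6.55) and COX7B (5.23), whose other forms are COX6A2 and COX7B2.

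NDUFA4L2, known as a target of the hypoxia factor HIF1, was at -0.27 log2 CPM per kb beside NDUFA4 at 5.92, a difference of 6.19. COX7A2L, known for joining complexes III and IV into supercomplexes, was not of this kind: at 5.67 it was 3.20 below COX7A2 and well above the median protein-coding gene. UQCRHL, a copy of UQCRH with 1 exon on chromosome 1, was at 7.06, against 9.92 for UQCRH. Their coding sequences are 98.5% identical, so reads can fit both, and how the counting divided them is not given in the sources used here.

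**Figure D3:**
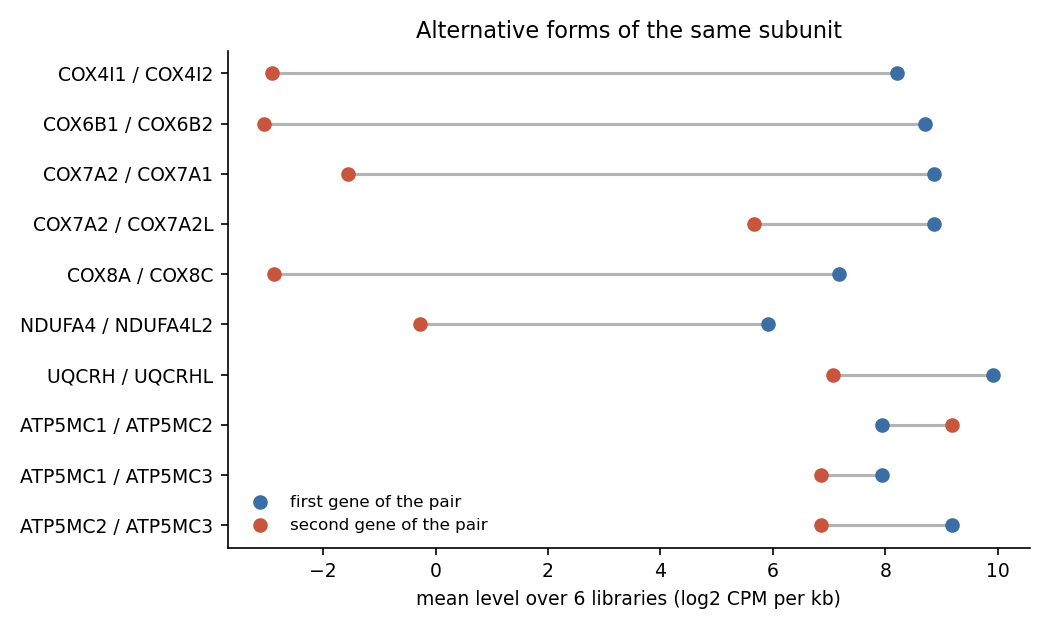
Mean level of both genes of each pair of subunit forms, in log2 CPM per kb, with blue for the first gene named and red for the second. In the 4 pairs COX4I1/COX4I2, COX6B1/COX6B2, COX7A2/COX7A1 and COX8A/COX8C the second form lies at -1.56 or less and the first at 7.18 or more, and the 3 ATP5MC genes lie within 2.34 of each other.

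The low values of NDUFV2, NDUFA7, NDUFA13 and SDHA stood beside a feature of the GENCODE 44 annotation, which is not the refSeq annotation that the study's methods name for the counting. In GENCODE 44, the exons of these genes are also part of a second gene model on the same strand that runs on into a neighbour. Such a model holds 90.0% of the NDUFV2 transcript (a model that also shares exons with ANKRD12), 83.9% of NDUFA13 (YJEFN3), 77.9% of NDUFA7 (CD320), 72.0% of NDUFB8 (SEC31B), 69.4% of SDHA (PDCD6), 68.2% of NDUFA11 (FUT5) and 63.8% of ATP5PO (DONSON). These 7 are all subunit genes with at least 50% of their bases shared. Their means were -1.06 log2 CPM for NDUFV2, -0.26 for NDUFA13, -1.64 for NDUFA7, 3.94 for NDUFB8, 3.81 for SDHA, 3.59 for NDUFA11 and 6.36 for ATP5PO. Their median was 3.59, and that of the 92 other subunit genes 6.89. ATP5PO was the exception, with a level close to the others.

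Medians were also lower at higher overlap across the table. The median of protein-coding genes was 3.78 log2 CPM for the 14748 with under 1% of their bases shared on the same strand, 3.72 for the 1062 with 1% to 25%, 2.46 for 342 with 25% to 50%, 1.55 for 186 with 50% to 75%, and -0.88 for the 326 with 75% or more. Among subunit genes 7.07% had at least 50% of their bases shared, and 3.07% of protein-coding genes did. NDUFS7, with 51.3% of its bases under models on the opposite strand, was at 3.68 log2 CPM. The study's methods name a refSeq annotation for the counting, so the models counted need not be these GENCODE ones. The strand setting and overlap mode of the counting are not given in the sources used here, and the part of shared exons in these low levels was not tested. Scaled only by the bases that no other model holds, NDUFV2 was at 2.47, NDUFA13 at 3.31, NDUFA7 at 1.32, SDHA at 4.09, NDUFA11 at 6.04 and NDUFB8 at 6.34 log2 CPM per kb. These levels are given for the genes as listed and are no measure of how much of their messenger the cells held.

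**Figure D4:**
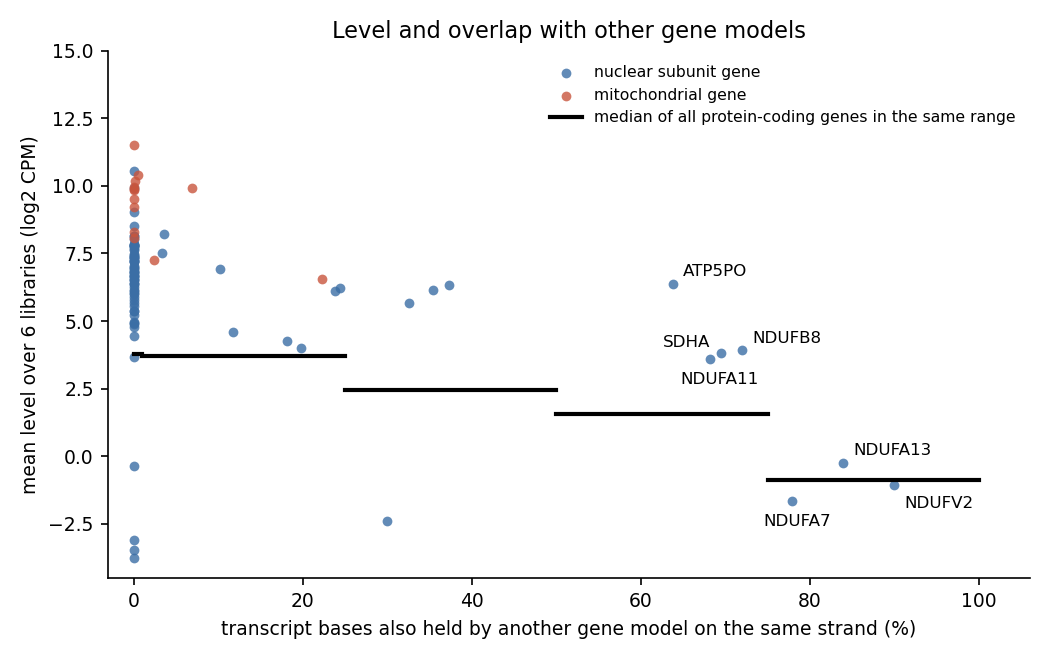
Mean level of each subunit gene, in log2 CPM, against the percent of its canonical transcript that another gene model holds on the same strand; black bars are medians of all protein-coding genes in the same range. The genes with 50% or more are named, and 6 of these 7 lie under 4 log2 CPM; the low points at the left are NDUFA4L2, COX7A1, COX4I2 and COX8C, and the one at 29.9% is COX6B2.

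Of the members, 5 are not subunits. The read-through gene ATP5MF-PTCD1 was at -3.40 log2 CPM, with all of its bases shared with its 2 parent genes, whereas ATP5MF was at 6.34. The divergent transcript NDUFA6-DT was at 0.55, the antisense transcripts NDUFB2-AS1 and NDUFV2-AS1 were at -1.28 and -1.53, and ATP5MGL, a copy of ATP5MG on chromosome 22, was at 0.85.

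Genes of the proteins that build the complexes had a lower median than the subunit genes. Of 46 assembly factors looked up, all were listed, with a median of 3.93 log2 CPM per kb. The highest were NDUFAF3 at 6.90 and NDUFAF8 at 6.55, both of complex I. The lowest were COX20 at -1.66 and SCO2 at -1.19, which handle MT-CO2 and its copper, and 95.7% and 87.1% of their bases lie under models on the opposite strand. Without the 5 factors that have over 50% of their bases under another model on either strand, the median was 4.33. Of 12 regulators of mitochondrial gene expression 11 were listed, with a median of 4.36. PPRC1, a coactivator of the PGC-1 family, was highest at 5.24 and YY1 next at 5.08. MTERF1, a mitochondrial transcription terminator, was lowest at 1.66 and PPARGC1B second lowest at 2.08. PPARGC1A, the best known coactivator of mitochondrial growth, was the one not listed. The 17 glycolysis genes as listed had a median of 6.71 log2 CPM per kb, close to the 6.62 of the nuclear subunit genes. Among them ALDOA, at 4.18 log2 CPM, and LDHB, at 6.06, have 89.8% and 76.5% of their bases shared on the same strand. Neither this median nor the share of counts given above was computed without them.

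The nuclear subunit genes had features in common that their names did not choose. Of the 78 with a mean of 0 log2 CPM or more, 57.7% had a canonical transcript under 1 kb. Of the 11481 protein-coding nuclear genes at or above the same floor, not otherwise matched for level, 5.32% did. The median transcript of the subunit genes had 760.5 bases and 4 exons, beside 3391 bases and 9 exons. They lay on 22 chromosomes, and 29.5% of them had a neighbour starting within 1000 bases on the opposite strand, against 13.6%. One such pair is ATP5PF and GABPA, which encodes the DNA-binding subunit of GABP, with starts 68 bases apart. Both were expressed, ATP5PF at 7.33 and GABPA at 6.19 log2 CPM, and the ATP5PF window printed above holds the ETS letters that GABP is known to bind.

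In the 68 promoter windows, the NRF1 letters were found in 13, or 19.1%, against 5.76% of 9437 windows of protein-coding genes with a mean of 0 log2 CPM or more and 3.27% of all 27305 windows. The YY1 letters were found in 11, or 16.2%, against 5.73% and 3.03%. The ETS letters were found in 20, or 29.4%, against 20.3% and 10.7%, and also in 33.9% of 62 windows of cytosolic ribosomal protein genes, where the NRF1 letters were found in 4.84%. At least 1 of these 3 was in 34 of the 68 subunit windows in 28.5% of those of expressed genes, and in 45.2% of those of cytosolic ribosomal protein genes. The CCAAT letters were in 33.8% against 37.3% of expressed genes, and TATAAA in 8.82% against 5.21%. The ETS and YY1 letters can share 3 bases, which occurred in 0 subunit windows. Both strands were searched, and a match is a run of letters, not a site shown to be bound. A window need not lie at the start of the transcript used for the level. That of NDUFA5, for example, lies outside the GENCODE model of the gene. Levels of genes with and without the letters overlapped: with NRF1 letters they ranged from 4.08 to 9.20 log2 CPM per kb with a median of 7.21, and without them from -3.05 to 9.92 with a median of 6.68. The medians with and without the letters were 7.10 and 6.59 for ETS, 5.98 and 6.69 for YY1, 7.02 and 6.50 for CCAAT, and 5.39 and 6.71 for TATAAA.

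**Figure D5:**
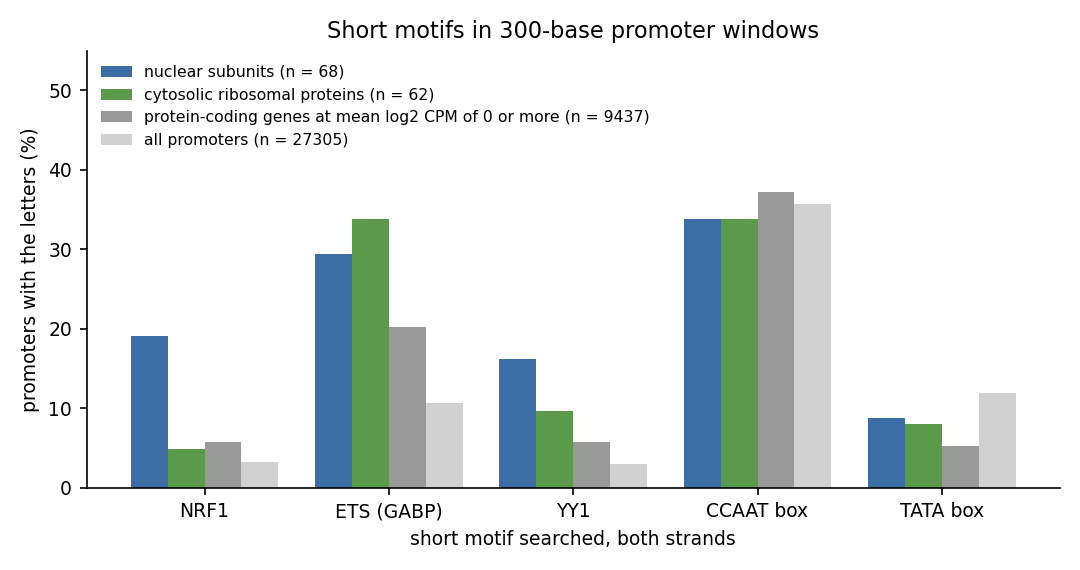
Percent of 300-base promoter windows that hold each short motif on either strand, for nuclear subunit genes, cytosolic ribosomal protein genes, protein-coding genes at a mean of 0 log2 CPM or more, and all windows. The subunit genes stand at 19.1% for NRF1 and 16.2% for YY1, above the other 3 groups, and beside them for the CCAAT box.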

How the data were processed

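RNA of HEL cells was sequenced in 3 shCtrl and 3 shTMIGD2 libraries, grouped by the labels. Per the labels and the study's methods, the authors aligned reads with STAR 2.6.1b to hg38 and counted fragments per gene with HTSeq 0.6.1 on a refSeq annotation. The methods keep genes whose reads average 1 or more in one of the groups, but state this for another testing tool than the one whose column names the deposited table has. That deposited table, made by the authors, has 1 row per gene, with a log2 CPM column that is a mean over all 6 libraries. The normalization and filter of that table, and the strand setting of the counts, are not given in the sources used here. The other 4 columns hold the authors' comparison of shTMIGD2 with shCtrl (a fold change, an F statistic, a p-value and its adjusted value) and were not used. The table had 0 columns of single libraries, so depth is unknown and no test, interval or replicate error was possible.

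Names were matched to GENCODE 44 on GRCh38, 22987 by symbol and 578 by a RefSeq synonym. The other 8434 names were not matched and enter no level per kb, overlap or set of protein-coding genes. A level per kb is the mean log2 CPM minus log2 of the length, in kb, of the canonical transcript. Shares are sums of antilogged means over 1000000. Overlaps are exon bases of the canonical transcript within exons of any other gene. A neighbouring gene was named where it shared at least 50 exon bases with the overlapping model. Proteins were translated from GENCODE coding sequences and aligned with Biopython 1.88. Promoters are RefSeq windows, the first listed per gene. The name rule, the ranking and the length scaling were tested on simulated data.

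Genes named are all mitochondrial genes, nuclear core subunits of complexes I and III, complex II, pairs of forms, the 2 highest and 2 lowest nuclear genes per kb of each complex, the same for assembly factors and regulators, members that are not subunits, and pseudogene copies above 5 log2 CPM. Genes named for their overlap with another model, for a level above that of their parent gene, for their length or for their promoter were chosen after their values were seen. The members and lists were chosen with earlier results of these data known. An item that this rule names is not reported here.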

Additional observations from a re-analysis of the deposited data

How the results depend on the processing

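The medians per kb depended on the length used. With the summed length of all non-overlapping exons of a gene, in place of 1 transcript, they were 4.56 log2 CPM per kb for complex I (6.15 before), 5.18 for complex II (5.98), 5.74 for complex III (6.69), 6.28 for complex IV (7.71) and 6.23 for complex V (7.45), so complex IV stayed highest and complex I changed places with complex II as the lowest. Without bases shared with another gene model, an alternative chosen after seeing the data, they were 6.32, 6.18, 6.69, 7.81 and 7.59. Without members under a mean of 0 log2 CPM, complex I moved to 6.60 and complex IV to 8.11, and complexes II, III and V did not move. With names that are not subunits kept in, complex I was at 5.98 and complex V at 7.39. With NDUFA4 counted in complex IV, complex I was at 6.30 and complex IV at 7.60. The median of the mitochondrial genes was 23.9-fold that of the nuclear ones with summed exons, 7.18-fold without members under 0 log2 CPM and 7.49-fold without shared bases (7.85-fold before). The share of all subunit genes was 2.315% over the sum of all genes and 2.36% with pseudogene copies added, and that of the mitochondrial genes 1.17% with their copies. The median percentile was 85.0 among genes with a mean of 0 log2 CPM or more, against 93.5 among all. Leaving out a library, another normalization and another pseudocount were not run, since they need values per library. No paired analysis was possible because the table used holds 1 mean per gene over both groups. Without depth or replicates, no error can be given for any level.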
